A study of Homo sapiens with 48 samples.

Results

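The FOSL1-only promoter regions are the sites in L3.6pl cells where a FOSL1 ChIP-seq peak was called at a promoter and no NF-κB subunit was called on top of it. They were chosen by 3 criteria applied to the deposited peak lists and the annotation: a FOSL1 peak in vehicle-treated cells on chromosomes 1 to 22 or X, no overlap of even 1 bp with any of the 10 RELA and RELB lists, and a summit within 1000 bp of the transcription start site (TSS) of a protein-coding transcript in GENCODE 44. The rule selected 9617 of 58828 FOSL1 regions, or 16.3%. They make up 88.6% of the 10856 FOSL1 regions at promoters, the other 1239 being overlapped by RELA or RELB. FOSL1 peak values, RELA and RELB overlap and promoter position were therefore used by the choice itself, and are given as a description.

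L3.6pl is an established human pancreatic ductal adenocarcinoma (PDAC) line, and all results hold for this 1 line. ChIP-seq was performed for FOSL1 after vehicle (PBS), and for RELA, RELB and the histone mark H3K27ac after vehicle, TNFα or TWEAK, each cytokine at 10 ng/ml for 30 min or 6 h. There were 16 conditions of 3 samples, 48 in all, and 1 merged peak list per condition (11 of narrow peaks, 5 of broad H3K27ac peaks). No duration is given for the vehicle. FOSL1 was mapped in vehicle alone, so the lists do not show where FOSL1 sat after a cytokine.

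Because replicates were merged before deposition, no value below has an error between replicates and no test between conditions was possible. Shares carry an exact (Clopper-Pearson) 95% interval, which covers counting error only, and regions are not replicates. The read depth per sample is unknown from the lists. The 5 H3K27ac lists held 53861 to 61154 regions on these chromosomes, the shortest after 30 min of TNFα, so a peak missing from a list can reflect that list's length or depth as well as the mark, and the 2 cannot be told apart. It is not settled that all 3 replicates entered the RELA list of 30 min of TNFα, since its peaks are named after replicate 1 as well as merged data, which bears on the regions it excluded.

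FOSL1 (FRA-1) is a FOS-family subunit of AP-1, a dimeric leucine zipper factor that pairs with JUN proteins and binds the palindromic site TGACTCA or TGAGTCA. Its protein is stabilised by MAPK signalling, and in pancreatic and other carcinomas it is known for driving migration and invasion programmes. AP-1 typically acts at distal enhancers, whereas most promoters of broadly expressed genes are CpG-rich and carry sites for SP/KLF, ETS and NFY factors, and H3K27ac marks the nucleosomes that flank active promoters and enhancers.

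The 91 bp around the FOSL1 summit of 5 strong FOSL1-only promoter regions with an AP-1 motif are shown because they carry the canonical site close to the summit. They were the strongest with the motif inside the window and no annotated exon there, read from hg38 on the strand of the gene, and the AP-1 motif is in capitals. The windows lie at chr19:4713714-4713804 (DPP9, minus strand), chr19:13731259-13731349 (YJU2B, plus strand), chr7:2110501-2110591 (MAD1L1, minus strand), chr22:46377763-46377853 (CELSR1, minus strand) and chr17:10115191-10115281 (GAS7, minus strand).
DPP9: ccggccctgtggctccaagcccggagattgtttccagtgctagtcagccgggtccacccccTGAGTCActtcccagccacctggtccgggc
YJU2B: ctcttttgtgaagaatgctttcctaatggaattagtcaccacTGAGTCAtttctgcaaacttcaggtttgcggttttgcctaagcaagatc
MAD1L1: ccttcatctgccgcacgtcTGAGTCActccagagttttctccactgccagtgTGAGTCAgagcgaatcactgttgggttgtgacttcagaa
CELSR1: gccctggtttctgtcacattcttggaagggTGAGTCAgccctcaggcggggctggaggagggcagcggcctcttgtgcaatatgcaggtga
GAS7: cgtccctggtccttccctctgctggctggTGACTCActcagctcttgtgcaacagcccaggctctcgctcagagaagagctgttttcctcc
The MAD1L1 window held the motif at 2 places and the other windows at 1.

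Strong regions without that motif are shown for contrast. SPATC1L (chr21:46184548-46184638, minus strand) had the highest FOSL1 fold enrichment of all FOSL1-only promoter regions and lies in a tandem repeat, whose unit starts again within the window. FLAD1 (chr1:154983213-154983303, plus strand) and NAIF1 (chr9:128067455-128067545, minus strand) were the next strongest outside exons, and capitals mark CCAAT, the NFY site. Within 100 bp of the summit FLAD1 also had an E-box and NAIF1 an SP/KLF motif.
SPATC1L: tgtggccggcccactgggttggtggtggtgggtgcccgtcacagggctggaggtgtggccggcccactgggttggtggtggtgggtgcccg
FLAD1: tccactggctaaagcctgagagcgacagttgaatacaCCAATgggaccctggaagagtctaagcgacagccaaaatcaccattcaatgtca
NAIF1: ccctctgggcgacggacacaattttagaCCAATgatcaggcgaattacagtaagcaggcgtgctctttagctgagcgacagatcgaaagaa

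FOSL1-only promoter regions were weaker FOSL1 peaks than the distal ones. Their fold enrichment over input had a median of 4.29, with quartiles of 3.70 and 5.22 and a range of 1.82 to 29.1. Distal FOSL1 regions without NF-κB had a median of 5.18 and FOSL1 promoter regions with NF-κB one of 4.94. The median length was 247 bp against 228 bp at distal regions. These values come from the list that chose the regions.

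Summits were densest just upstream of the start. The median position was -42 bp relative to the nearest TSS, and 6054 regions (63.0%) had the summit upstream. The fullest 50 bp step ran from -50 to 0 bp and held 1446 regions, 43.2% of summits lay within 100 bp and 68.5% within 250 bp of a start. For 2441 regions (25.4%) the nearest start was an alternative one, over 1000 bp from the annotated start of the gene. Starts on both strands lay within 1000 bp of the summit of 1102 regions (11.5%), and whether they pointed away from each other was not checked.

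Genes differed in how many such regions they carried. In all, 8522 of 19626 protein-coding genes had at least 1 FOSL1-only promoter region (43.4%), 497 of them also had a FOSL1 promoter region with NF-κB, and 9764 genes had neither FOSL1 nor NF-κB within 1000 bp of any start. PACSIN2, which encodes a membrane-bending protein of endocytosis, was nearest to 6 regions, some of which shared a start, with fold enrichments of 4.23 to 9.69. INF2, an actin-nucleating formin, ITGB5, an integrin subunit, and KRT8, the simple-epithelium keratin, each had 5. At least MYO10, NEDD4L, OSBP2, SEMA4B, SEPTIN9 and TNS3 were tied with them. Genes with H3K27ac within 500 bp of the gene start in vehicle had a FOSL1-only promoter region in 64.6% of cases (63.7 to 65.5, of 11321), and genes without it in 14.6% (13.8 to 15.4, of 8305).

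**Figure D1:**
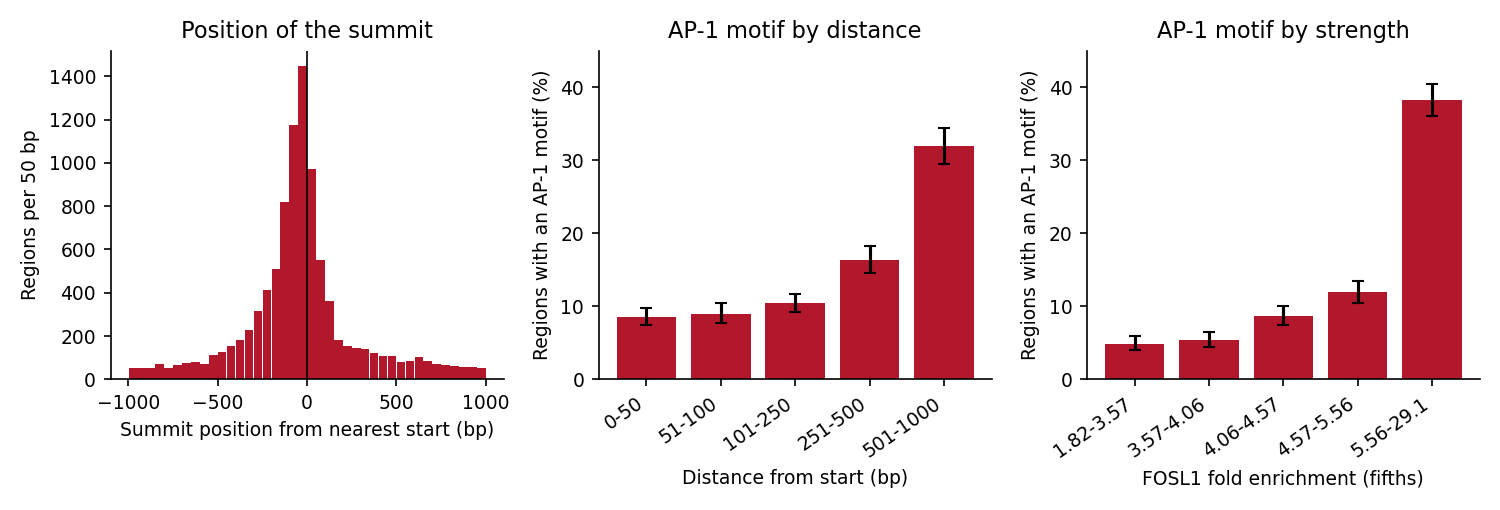
Left, number of FOSL1-only promoter regions per 50 bp of summit position relative to the nearest TSS (negative is upstream). Middle and right, share with an AP-1 motif within 100 bp of the summit by distance from the TSS and by quintile of FOSL1 fold enrichment, with exact 95% intervals; the share rose from 8.57% to 31.9% with distance and from 4.89% to 38.3% with strength.

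The canonical AP-1 motif was present at a minority of these promoters. TGACTCA or TGAGTCA, which are each other's reverse complement so that a single search covers both strands, occurred within 100 bp of the summit in 1330 of 9617 regions, or 13.8% (13.1 to 14.5). Over all FOSL1 regions the share was 38.2%, and at distal FOSL1 regions without NF-κB it was 48.3% (47.8 to 48.8). FOSL1 promoter regions with NF-κB gave 14.0% (12.2 to 16.1), an interval that holds the value of the FOSL1-only promoter regions.

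The motif was nevertheless placed at the summit. Windows of the same length 1000 bp to either side held it in 2.38% (2.17 to 2.61) of cases, all protein-coding gene starts in 2.62% and promoters without FOSL1 and NF-κB in 2.37%. Where it was present, its centre lay a median of 18 bp from the summit, and within 25 bp in 62.7% of the regions. Compared with acetylated promoters without FOSL1 and NF-κB the gap was wider. These, read around the gene start, held the motif in 0.679% (0.415 to 1.05) of 2946 cases. Acetylated FOSL1-only promoter regions, read around the summit, held it in 12.7% (12 to 13.4).

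**Figure D2:**
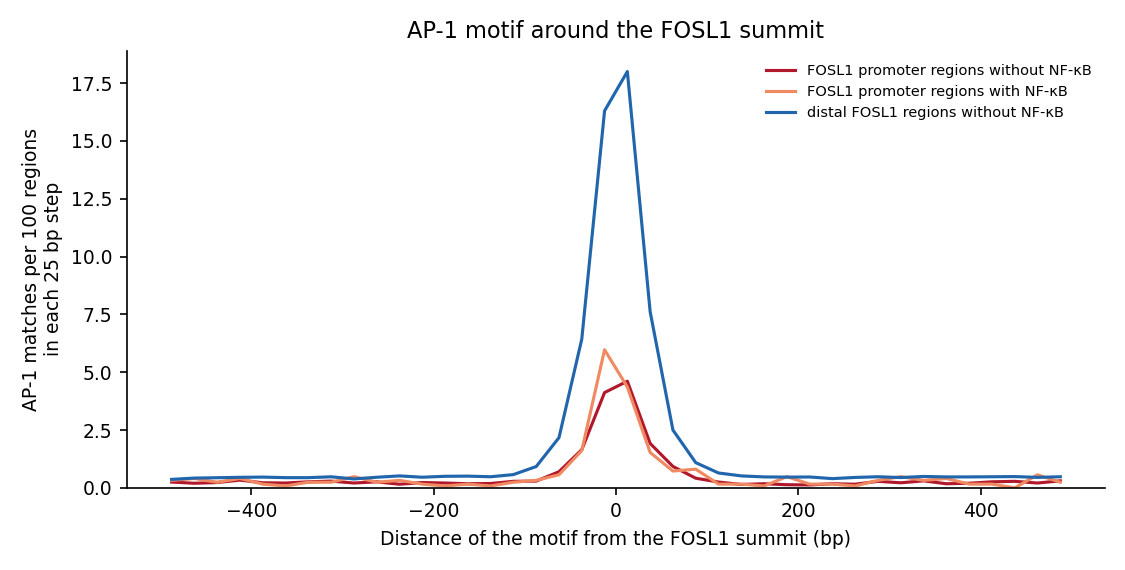
AP-1 motif matches per 100 regions in 25 bp steps around the FOSL1 summit (x axis, bp from the summit), for FOSL1-only promoter regions and the 2 nearest classes of FOSL1 region. Each class peaks at the summit, at 4.61 matches for FOSL1-only promoter regions and 18.0 for distal regions in the step from 0 to 25 bp.

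Strength and distance separated promoters with the motif from those without. The share with an AP-1 motif was 4.89% (3.97 to 5.95) in the weakest quintile by fold enrichment and 38.3% (36.1 to 40.5) in the strongest, which began at 5.56. The median fold enrichment was 5.93 with the motif and 4.16 without. By distance, the share was 8.57% (7.49 to 9.76) within 50 bp of the TSS, 16.4% (14.6 to 18.3) between 250 and 500 bp and 31.9% (29.5 to 34.4) beyond 500 bp. Regions with the motif were also less CpG-rich, with an observed to expected CpG ratio of 0.404 against 0.787 and a GC content of 53.7% against 65.2% (medians).

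Motifs of other promoter factors were more frequent than at distal regions for SP/KLF, ETS and the E-box, and not for NFY. GGGCGG (SP/KLF) occurred in 48.5% (47.5 to 49.5) of the windows of 100 bp to either side, CCAAT (NFY) in 22.3% (21.5 to 23.1), CCGGAA (ETS) in 20.1% (19.3 to 20.9) and CACGTG (E-box) in 7.41%, on either strand. All protein-coding gene starts held them in 46.9%, 26.0%, 16.1% and 5.88% of cases, and distal FOSL1 regions without NF-κB in 6.81%, 22.1%, 3.38% and 2.74%. Among acetylated sites alone, SP/KLF stood at 49.8% (48.7 to 50.8) at FOSL1-only promoter regions and 65% (63.3 to 66.8) at promoters without FOSL1 and NF-κB, NFY at 22.1% (21.3 to 23) and 26.6% (25 to 28.2) and ETS at 21% (20.1 to 21.8) and 20.8% (19.3 to 22.3). The latter windows were centred on the gene start and not on a summit. Their median GC content was 69.2% against 64.2%, and their CpG ratio 0.893 against 0.77. The part of these differences in the motif shares was not tested. TGACGTCA, the cyclic AMP response element (CRE) that ATF and CREB dimers bind, was found in 2.08% (1.80 to 2.39) against 0.272% at distal regions and 1.87% at all gene starts. GCGCATGCG (NRF1), AAGATGGCG (YY1) and ACATTCC (TEAD) each occurred in under 2 of 100 regions, at 1.07%, 1.93% and 1.88%, and all gene starts held them in 1.88%, 2.05% and 1.67%. The NF-κB motif was present in 8.88% against 7.94% of all gene starts and 30.8% of FOSL1 promoter regions with NF-κB, a contrast on which the regions had in part been chosen.

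Among the 12 regions with the highest fold enrichment, 4 had the AP-1 motif and 8 did not. Those with it belonged to DPP9 (22.6), a dipeptidyl peptidase that restrains inflammasome sensors, YJU2B (21.3), STX3 (21.0), a syntaxin of apical membrane fusion, and MAD1L1 (19.8), the spindle checkpoint protein MAD1. Those without it included SPATC1L (29.1) and PKNOX1 (22.2, a homeobox partner of PBX proteins), both in tandem repeats, FLAD1 (22, FAD synthase), NAIF1 (20.7), ACOT8 (20.6, a peroxisomal thioesterase), ZCCHC4 (20.3, an rRNA methyltransferase) and RFX1 (19.7, an X-box binding factor). Of all FOSL1-only promoter regions, 158 (1.64%) lay in tandem repeats, against 4.90% of distal regions without NF-κB.

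Regions on either side of the 1000 bp limit were close in FOSL1 strength. SEC24D and TPBGL, the outermost regions inside it, had fold enrichments of 6.04 and 5.81, and RSPH6A and KIFC3, 1 bp beyond it, had 7.42 and 4.30. The 207 regions in the last 100 bp inside the limit had a median of 4.32 and an AP-1 motif in 36.2%, and the 182 regions without NF-κB in the first 100 bp beyond it had 4.38 and 41.2%. A RELA or RELB region lay within 1000 bp of 671 FOSL1-only promoter regions (6.98%) and within 50000 bp of 4369 (45.4%), with a median gap of 59.0 kb.

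H3K27ac was almost universal at these promoters before treatment. A peak lay within 500 bp of the summit in vehicle at 9085 of 9617 regions, or 94.5% (94.0 to 94.9), against 67.4% of all FOSL1 regions. Distal FOSL1 regions without NF-κB reached 60.9% (60.5 to 61.4), and promoters without FOSL1 and NF-κB 30.2% (29.3 to 31.1). FOSL1 promoter regions with NF-κB stood at 97.4% (96.4 to 98.2). The mark covered the FOSL1 summit itself at 7629 of the 9085 acetylated regions (84.0%, 83.2 to 84.7), and at the other 1456 it lay beside the summit only. At distal acetylated regions it covered the summit in 65% (64.4 to 65.6).

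The share changed little in the treated lists. It was 91.8% (91.3 to 92.4) after 30 min of TNFα, where all FOSL1 regions stood at 59.1%, and 94.2% (93.7 to 94.7) after 6 h, where they stood at 67.6%. After TWEAK it was 92.7% (92.2 to 93.2) at 30 min and 93.3% (92.8 to 93.8) at 6 h, with 60.5% and 63.7% over all FOSL1 regions. In total, 8694 regions (90.4%) were acetylated in all 5 lists and 401 (4.17%) in none. Distal FOSL1 regions without NF-κB stood at 41.5% and 31.2%, and FOSL1 promoter regions with NF-κB at 95.5% and 1.29%.

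The peak itself was taller and wider than at distal sites. In vehicle the H3K27ac peak at a FOSL1-only promoter region had a median fold enrichment of 4.03 and a width of 1542 bp, against 3.16 and 999 bp at distal regions without NF-κB. In the 4 treated lists the median fold enrichment was 4.0, 3.95, 4.03 and 4.24, in the order TNFα at 30 min and 6 h and TWEAK at 30 min and 6 h. Fold enrichment was called separately in each list, so these medians are set side by side and not compared. Among the strongest FOSL1 regions, ZCCHC4 had H3K27ac fold enrichments of 5.81 in vehicle, 5.71 and 7.56 after TNFα and 8.21 and 7.61 after TWEAK at 30 min and 6 h. MAD1L1 had 3.87 in vehicle, 2.62 and 3.14 after TNFα and 2.72 and 4.21 after TWEAK, and SPATC1L had no peak in either 30 min list. ZCCHC4, MAD1L1 and SPATC1L spread most across lists among the regions named for highest FOSL1 fold enrichment, and are not typical of them. NAIF1 had 5.16 in vehicle, 4.98 and 5.15 after TNFα and 5.15 and 5.56 after TWEAK. PKNOX1 had 4.59, 4.44, 4.68, 4.46 and 4.66 in the same order. As with the medians, no change is read from these values.

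**Figure D3:**
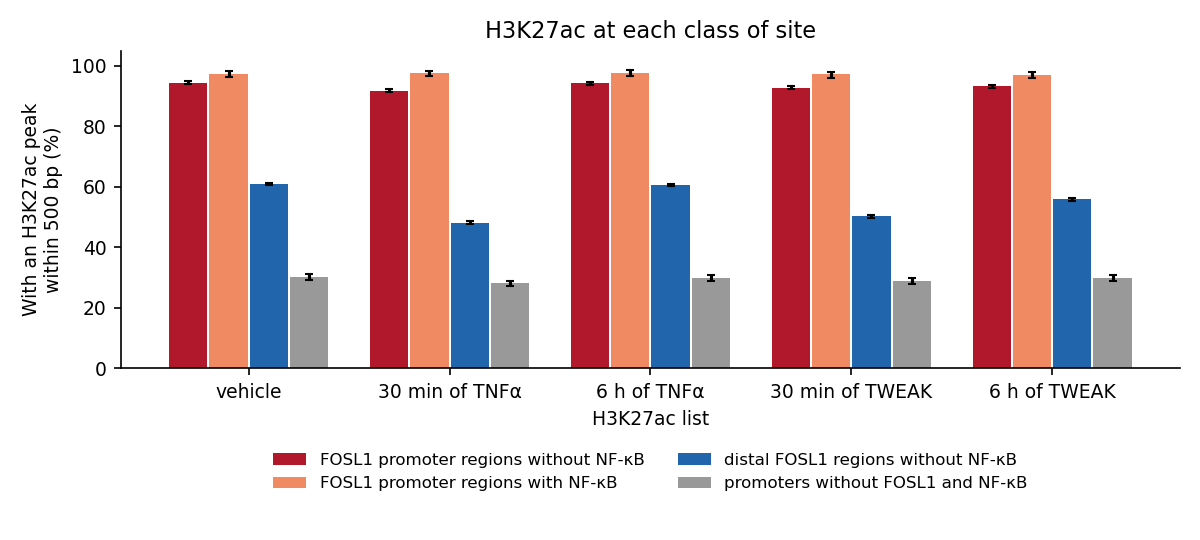
Share of sites with an H3K27ac peak within 500 bp (y axis, %) in each of the 5 H3K27ac lists, with exact 95% intervals. FOSL1-only promoter regions stayed between 91.8% and 94.5%, while distal FOSL1 regions without NF-κB ranged from 48.1% to 60.9%.

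Few acetylated promoters lacked a peak after treatment. Of 9085 regions acetylated in vehicle, 300 (3.30%, 2.94 to 3.69) had none after 30 min of TNFα and 96 (1.06%, 0.857 to 1.29) after 6 h, where the shares over all FOSL1 regions were 16.9% and 6.18%. After TWEAK, 228 (2.51%, 2.20 to 2.85) had none at 30 min and 146 (1.61%, 1.36 to 1.89) at 6 h, against 14.9% and 9.47%. All 4 comparisons share the vehicle list. The distal regions without NF-κB lacked a peak in 24.8%, 8.10%, 21.5% and 12.7%, in the same order. Promoters without FOSL1 and NF-κB did so in 10.3%, 4.11%, 8.25% and 4.21%, and FOSL1 promoter regions with NF-κB, the lowest of these classes in each list, in 0.746%, 0.497%, 0.994% and 0.746%. With the H3K27ac peak required over the summit itself, the shares without one were 9.67%, 5.16%, 7.48% and 8.47% at FOSL1-only promoter regions and 31.8%, 18.7%, 29.1% and 30.7% at distal ones, so that 6 h of TWEAK passed 30 min of TWEAK.

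The strength of the vehicle peak moved with this share, and its part in the gap to distal regions was not tested. Over quintiles of the vehicle H3K27ac −log10 q, set on all acetylated FOSL1 regions, 4851 FOSL1-only promoter regions fell in the strongest quintile and 295 in the weakest, against 1797 and 6560 distal regions. In the weakest quintile (−log10 q up to 3.85), 52.5% (46.7 to 58.4) of FOSL1-only promoter regions lacked a peak at 30 min of TNFα, against 59.9% (58.7 to 61.1) of distal ones. In the strongest, 0.165% (0.0712 to 0.325) and 1.45% (0.947 to 2.11) did.

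Promoters with an AP-1 motif lacked a peak more often than those without it. They did so in 9.97%, 3.81%, 8.23% and 5.72% of cases in the order above, against 2.33%, 0.656%, 1.68% and 1.01% without the motif. They were also less often acetylated to begin with, at 86.8% (84.8 to 88.5) against 95.7% (95.2 to 96.1), and made up 39.0% of the weakest and 8.58% of the strongest quintile by vehicle H3K27ac. Within the weakest quintile 58.3% (48.7 to 67.4) of those with the motif and 48.9% (41.4 to 56.4) of those without it lacked a peak at 30 min of TNFα, and the intervals overlapped. They also overlapped in the next 2 quintiles, at 17.6% (11.3 to 25.7) against 21.4% (16.9 to 26.6) and 6.08% (3.07 to 10.6) against 2.88% (1.83 to 4.29). In the 2 strongest quintiles they did not, at 3.41% (1.71 to 6.01) against 0.36% (0.155 to 0.708) and 1.2% (0.391 to 2.78) against 0.0676% (0.014 to 0.198), where 11 and 5 regions with the motif lacked a peak.

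**Figure D4:**
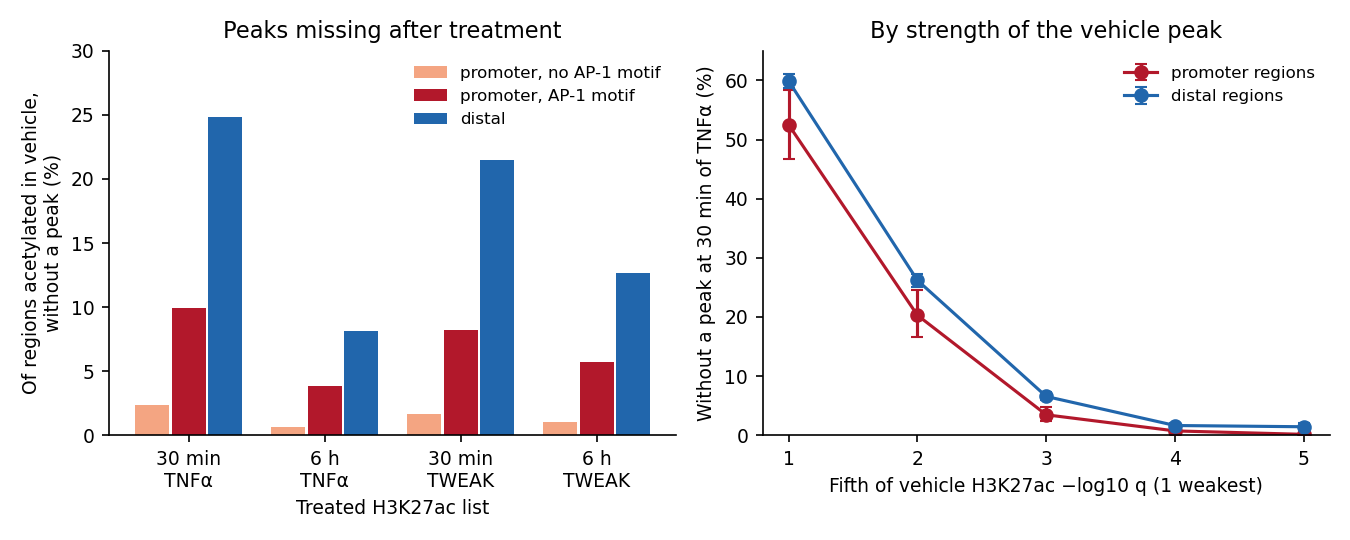
Left, share of regions acetylated in vehicle that had no H3K27ac peak in each treated list, for FOSL1-only promoter regions without and with an AP-1 motif and for distal FOSL1 regions without NF-κB. Right, the same share at 30 min of TNFα by quintile of the vehicle H3K27ac −log10 q, with exact 95% intervals; it fell from 52.5% to 0.165% at promoters and from 59.9% to 1.45% at distal regions.

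New H3K27ac peaks were few in number. Of 532 regions without a peak in vehicle, 48 (9.02%, 6.73 to 11.8) had one after 30 min of TNFα, 70 (13.2%, 10.4 to 16.3) after 6 h of TNFα, 59 (11.1%, 8.55 to 14.1) after 30 min of TWEAK and 38 (7.14%, 5.10 to 9.67) after 6 h of TWEAK. Over all FOSL1 regions, with or without NF-κB, the shares were 9.65%, 13.6%, 9.77% and 8.24%. Each lay within the interval of the FOSL1-only promoter regions. Distal FOSL1 regions without NF-κB stood at 5.81%, 11.9%, 6.03% and 6.8%, below that interval at 30 min and inside it at 6 h. Of 32 FOSL1 promoter regions with NF-κB and no peak in vehicle, 12, 10, 9 and 4 had one, in the same order. Among FOSL1-only promoter regions, only 3 had a peak in all 4 treated lists and not in vehicle, each with an AP-1 motif. They were LRBA (3.04, 2.82, 2.59 and 2.83 in the treated lists), DDX11 (2.41, 1.99, 2.24 and 2.02) and MYO9B (2.91, 2.75, 2.67 and 2.99). LRBA is a vesicle-trafficking protein, DDX11 a DNA helicase and MYO9B an unconventional myosin with a RhoGAP domain.

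The opposite pattern, H3K27ac in vehicle alone, was found at 41 regions (0.426%), against 2.26% of distal FOSL1 regions without NF-κB. The strongest by FOSL1 belonged to ACSBG1 (an acyl-CoA synthetase, FOSL1 fold enrichment 15.4), ABHD12 (a lipid hydrolase, 11.0), LYPD1 (10.4), ADIPOR1 (an adiponectin receptor, 10.2) and ARC (an immediate-early gene, 9.14). Their vehicle H3K27ac fold enrichments were 2.44, 3.18, 3.09, 3.45 and 2.58, all below the median of 4.03. An AP-1 motif was present in 19 of the 41 regions (46.3%, 30.7 to 62.6), against 13.8% of all FOSL1-only promoter regions.

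The 401 regions without H3K27ac in any list had a median FOSL1 fold enrichment of 4.68, against 4.25 in the 8694 regions acetylated throughout. EGR3, an immediate-early zinc finger factor, was the strongest (17.4) and had no AP-1 motif. YPEL4 (13.9), CHN1 (12.3, a Rac GTPase-activating protein), ITLN1 (11.8, a lectin) and DHRS9 (11.7, a retinol dehydrogenase) followed, all with the motif. Of the 401, 137 had an AP-1 motif (34.2%, 29.5 to 39.0), against 11.5% (10.8 to 12.2) of the 8694. The median CpG ratio was 0.412 in the 401 and 0.777 in the 8694.

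The share of genes with a FOSL1-only promoter region is given for 17 lists beside the 43.4% of all protein-coding genes, with no test of a difference. The exact 95% interval held 43.4% for AP-1 subunits, MAPK feedback regulators, EGFR family, adhesion, PDAC lineage, EMT, mitosis, histone and NF-κB feedback genes, so that these lists were not separable from all genes at their size. It lay above 43.4% for the YAP and TEAD pathway, keratins and junctions, G1/S genes, both ribosomal lists, the proteasome and complex I, and below it for genes of other cell types. Genes with H3K27ac within 500 bp of the gene start in vehicle stood at 64.6%. The intervals of the lists above 43.4% held this value, except that of mitochondrial ribosomal genes (73.2 to 90.8). Genes without H3K27ac there stood at 14.6%, inside the interval of genes of other cell types (1.23 to 31.7). The lists were not split by H3K27ac. Of 15 AP-1 subunit genes 10 had a FOSL1-only promoter region, at FOS (11.8), MAFF (8.97) and FOSL2 (7.0) most strongly. FOSL1 itself and FOSB had both kinds of FOSL1 promoter region. Of the YAP and TEAD pathway, which relays cell density and matrix stiffness, 13 of 15 genes had one, among them YAP1, TEAD1, TEAD3 and TEAD4, the angiomotin gene AMOTL1 (11.8) and the targets ANKRD1 (7.53) and CCN2 (5.82). Keratin and epithelial junction genes had one at 16 of 21, with KRT5 (14.3), PKP3 (13.8, a plakophilin of desmosomes) and EPCAM (12.8) at the top. An AP-1 motif was held by 9 of their 21 regions (42.9%), against 13.8% of all FOSL1-only promoter regions.

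Adhesion and migration genes, such as ITGB5 (9.82), the focal adhesion protein gene ZYX (8.96) and PXN (8.08, paxillin), had one at 16 of 26. A further 7 had a FOSL1 promoter region with NF-κB alone. Of all 19626 protein-coding genes 1340 had a FOSL1 promoter region with NF-κB, 497 of them beside a FOSL1-only promoter region. No difference was tested. EGFR family genes had one at 4 of 11, strongest at ERBB3 (11.6) and EGFR (9.54), both with an AP-1 motif, and at the ligand gene BTC (5.61), which had none. H3K27ac was present at these 3 in all 5 lists, as at 90.4% of all FOSL1-only promoter regions. MAPK feedback regulators, which restrain the pathway that activates FOSL1, had one at 7 of 16, led by SPRED2 (8.46) and DUSP14 (6.64). PDAC lineage factors had one at 8 of 17, among them FOXA1 (4.94), KLF4 (4.46), GATA6 and SOX9, with a median fold enrichment of 3.28.

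Housekeeping genes carried FOSL1-only promoter regions mostly without the AP-1 motif, which 86.2% of all FOSL1-only promoter regions lacked as well. Mitochondrial ribosomal protein genes had a FOSL1-only promoter region at 65 of 78 (83.3%, 73.2 to 90.8), cytosolic ribosomal protein genes at 60 of 83 (72.3%, 61.4 to 81.6), proteasome subunits at 28 of 39 and complex I subunits of the respiratory chain at 24 of 37. Their strongest regions were at MRPS33 (10.4), MRPL28 (8.90) and MRPL12 (8.52), at RPL18 (14.2), RPL24 (9.43) and RPS7 (9.39), at PSMB7 (9.41), PSMD9 (8.64) and PSMD1 (6.63), and at NDUFS7 (7.74), NDUFA12 (5.92) and NDUFA5 (5.04). An AP-1 motif was found in 3 of 78 (3.85%), 4 of 68 (5.88%), 6 of 34 (17.6%) and 0 of 26 of their regions, in the same order. Over all FOSL1-only promoter regions the share was 13.8%, so the proteasome genes lay above it. H3K27ac in vehicle was present at all of the regions of these 4 lists, and at 94.5% of all FOSL1-only promoter regions.

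The AP-1 motif share at G1/S (11.1%) and histone genes (11.5%) was close to the 13.8% of all FOSL1-only promoter regions. That of mitosis genes rested on 11 regions. G1/S and replication genes had a FOSL1-only promoter region at 17 of 24 (RB1 4.45, MCM4 4.41, CCND3 4.29) and mitosis genes at 9 of 15 (AURKA 6.36, TOP2A 5.66, KIF11 5.18). An AP-1 motif was present in 3 of 27 and 0 of 11 of these regions. Histone genes had a FOSL1-only promoter region at 30 of 73, led by H4C8 (5.66) and H4C3 (5.06), with the motif in 3 of 26 regions.

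NF-κB feedback genes and genes of other lineages were at the low end. Of 14 NF-κB feedback genes 3 had a FOSL1-only promoter region, NFKBIE (3.44), NFKB1 (3.27) and RELB (3.17). NFKBIE and RELB also had a FOSL1 promoter region with NF-κB, and NFKB1 did not. A further 9 genes had a FOSL1 promoter region with NF-κB alone, which the exclusion of RELA and RELB sites sets. Over all 19626 protein-coding genes, 1340 had a FOSL1 promoter region with NF-κB, and 497 of these also had a FOSL1-only promoter region. Of 6 EMT transcription factor genes SNAI1 alone had a FOSL1-only promoter region (4.04). Of 20 genes that mark other cell types 2 had one, GFAP (6.79) and ACTC1 (5.11), the latter without H3K27ac in any list.

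**Figure D5:**
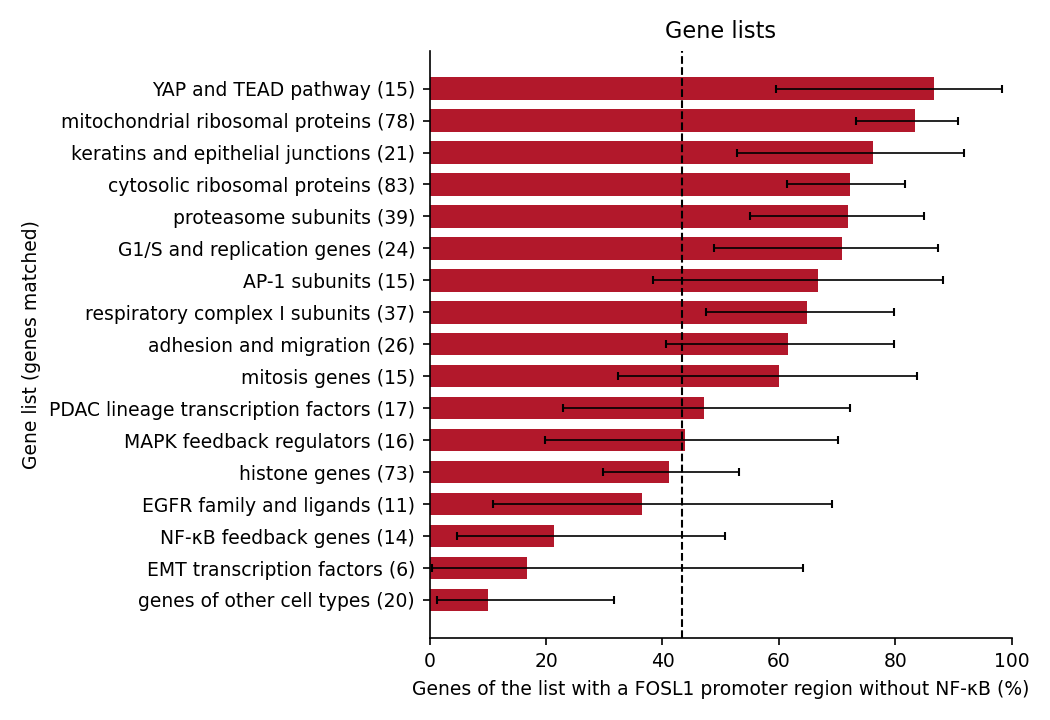
Share of the genes of each of 17 lists that had a FOSL1-only promoter region (x axis, %), with exact 95% intervals and the number of genes matched in brackets. The dashed line is the 43.4% of all protein-coding genes; mitochondrial ribosomal protein genes reached 83.3% and genes of other cell types 10.0%.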

How the data were processed

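ChIP-seq peaks of FOSL1, RELA, RELB and H3K27ac in L3.6pl cells were analysed. The authors aligned the reads to hg38 and called peaks against input. The submitters' processing notes name Bowtie2 2.5.0, SAMtools 1.18, deepTools 3.3.2 and MACS2, whose version is not given in the sources used here. Fold enrichments are the ratios of ChIP to input as deposited by the authors, and the deposited −log10 q is the authors' significance, averaged over the peak in the broad H3K27ac lists. Neither was renormalised. Values of each list were used within that list. Each list merges the samples of 1 condition, so conditions were described and not tested, and depth per sample is unknown.

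Lists were restricted to chromosomes 1 to 22 and X. Overlap needed 1 bp. Starts were the 78398 distinct protein-coding transcript starts of GENCODE 44 on hg38. Promoters without FOSL1 and NF-κB were represented by the gene start. H3K27ac was assigned within 500 bp and motifs within 100 bp of the summit or, for the share of all promoters, of the 19970 protein-coding gene starts. A tandem repeat was a self-match of at least 0.4 over 1000 bp at shifts up to 400 bp. Distances to starts are signed, negative upstream. Gene lists were matched by symbol within 1000 bp of any start of a gene. Python 3.11.15, numpy 2.4.6, pandas 2.3.3, scipy 1.17.1, pysam 0.24.0 and matplotlib 3.10.9 were used, and the functions were tested on simulated data.

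The regions, gene lists and motifs were chosen with earlier results of these data known. Named were the 12 regions with the highest FOSL1 fold enrichment (1 of them is not reported here), the strongest 3 regions of each gene list (fewer where a list has fewer, and 2 can share a gene), the strongest 5 with H3K27ac in vehicle alone, in all treated lists and not vehicle (3 exist) or in no list, and 2 on either side of 1000 bp. Beyond that rule, the genes with several regions, YAP1, the TEAD genes, FOSB, GATA6, SOX9 and the FOSL1 gene, the sequences without an AP-1 motif and all words in the closing section were chosen after their values were seen. In all, 86 alternative values were computed.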

Additional observations from a re-analysis of the deposited data

How the results depend on the processing

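No paired analysis was possible because each condition has 1 merged list with no values per replicate, and no replicate could be left out. Of 86 alternatives, 41 stayed within the 95% interval of the reported share or within 1.5 times the reported count and 45 did not; the cause was not tested. The H3K27ac share in vehicle and the 4 shares without a peak (30 min and 6 h of TNFα, 30 min and 6 h of TWEAK) are given in that order. With a FOSL1 fold enrichment of at least 5, 2844 regions remained, with 92.7% acetylated, 4.82%, 1.37%, 4.06% and 2.39% without a peak and an AP-1 motif in 30.4%. Within 500 bp of a start the values were 95.5%, 2.62%, 0.853%, 1.91% and 1.22%, with the motif in 10.8%, within 250 bp 96.2%, 2.46%, 0.820%, 1.83% and 1.10%, with 9.36%, and with 1 start per gene 96.0%, 2.29%, 0.721%, 1.78% and 1.00%, with 10.2%. With the H3K27ac peak over the summit the values were 79.3%, 9.67%, 5.16%, 7.48% and 8.47%, so that the order of 6 h of TWEAK and 30 min of TWEAK changed. With an H3K27ac −log10 q of at least 3 they were 92.6%, 4.43%, 1.31%, 3.37% and 2.40%. A window of 1000 bp gave 94.9%, 2.86% at 30 min of TNFα and 2.14% at 30 min of TWEAK. With the same number of strongest peaks in every list the vehicle share was 93.8% and that without a peak at 30 min of TNFα 2.83%. The AP-1 motif share was 14.8% at a FOSL1 −log10 q of at least 3, for the strongest region per gene and over the whole peak, 11.6% within 50 bp and 16.1% for TGANTCA. Without list depths, an absent peak sets no upper limit on the mark.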

Other observations

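Strong FOSL1-only promoter regions without the AP-1 motif had other words at the summit. Of 675 regions at a fold enrichment of 8 or more, 392 (58.1%) had the motif, and 281 of the others lay outside tandem repeats. All 7-letter words within 50 bp of the summit were ranked on the odd-numbered autosomes by the difference between these regions and those under a fold enrichment of 4.5 without the motif, and then counted on the remaining chromosomes. There, TGACTAA occurred in 14 of 120 strong regions (11.7%, 6.53 to 18.8) and 0.958% of weak ones, and TGAATCA in 11 of 120 (9.17%, 4.67 to 15.8) and 1.22%. Both differ from the AP-1 motif by 1 letter. Words of this kind, any 1 letter from the motif, were present in 40.6% (34.8 to 46.6) of the 281 strong regions, 16.9% of 5155 weak ones, 17.6% of promoters without FOSL1 and NF-κB and 82.8% of 1980 strong distal regions without the motif.

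Compared letter by letter without a shift, 6 of the 8 words ranked highest on the odd-numbered autosomes were not of this kind. Some of them overlap other words. ATGAATC overlaps TGAATCA when shifted by 1 letter, and AGCCAAT contains CCAAT, the NFY site. CTAGAGC shares TAGAG with the reverse complements of CTCTAGC and CGCTCTA. The 6 words therefore do not stand for 6 separate elements. On the remaining chromosomes AGAGAGG was found in 9.17% (4.67 to 15.8) of strong and 3.31% of weak regions. Promoters without FOSL1 and NF-κB held it in 4.81%, a value inside that interval. In the same order of parts, ATGAATC stood at 4.17% (1.37 to 9.46), 0.609% and 0.339%, and AGCCAAT at 8.33%, 2.13% and 2.21%. CTAGAGC stood at 9.17%, 1% and 0.993%, and CTCTAGC at 8.33%, 0.784% and 1.2%. Strong distal regions held these words in 2.45%, 23%, 1.18%, 0.785% and 0.785%, in the order given. CGCTCTA (reverse complement TAGAGCG) occurred on the remaining chromosomes in 12 of 120 strong FOSL1-only promoter regions (10.0%, 5.27 to 16.8), 0.958% (0.601 to 1.45) of weak ones, 0.0981% of strong distal regions and 0.497% of promoters without FOSL1 and NF-κB. The shorter words CTAGAG and ATAGAG, put together after all chromosomes had been seen, were found on either strand in 70 of the 281 strong regions (24.9%, 20.0 to 30.4), 4.83% of weak ones, 7.07% of strong distal regions and 5.61% of all protein-coding gene starts. CCAAT within 100 bp was present in 42.0% (36.2 to 48) of the strong regions and 20.4% of the weak ones, and in 15 of the 70. These 70 regions had a median distance of 60.0 bp from the start. The 8 strongest, at ACOT8, SP2, ATG101, FRMD5, KDM1A, SPHK2, UBXN6 and AKAP8L, all carried H3K27ac in all 5 lists. Of all FOSL1-only promoter regions 90.4% did so. The words are a description of these summits, and which protein reads them was not tested. The strongest such windows outside exons follow, on the strand of the gene in hg38, with CTAGAG or ATAGAG, or their reverse complement, in capitals: chr20:45857452-45857542 (ACOT8, minus strand), chr17:47896023-47896113 (SP2, plus strand) and chr15:44195337-44195427 (FRMD5, minus strand).
ACOT8: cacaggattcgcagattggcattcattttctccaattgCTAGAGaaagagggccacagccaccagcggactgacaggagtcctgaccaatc
SP2: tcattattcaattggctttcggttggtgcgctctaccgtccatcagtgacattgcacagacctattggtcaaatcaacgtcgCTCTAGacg
FRMD5: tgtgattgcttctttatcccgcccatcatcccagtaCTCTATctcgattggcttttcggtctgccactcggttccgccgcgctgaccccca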
